A study of Mus musculus with 8 samples.

Results

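The elements examined here are the internal stretches of IAPEz retroviruses, listed as IAPEz-int in a table of long repeats of the mouse genome (build mm9). All elements of that family were taken, except 16 on unplaced random scaffolds, which had 0 reads in every library. This left 814 copies among 17857 elements of the table, all at least 5001 bp long. Family name and chromosome alone decided which elements were taken.

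Intracisternal A-particle (IAP) elements are endogenous retroviruses of the mouse, made of an internal part with gag, pro and pol coding sequence between long terminal repeats that hold the promoter. They still move in some mouse strains, and a new insertion can disturb or redirect a nearby gene. IAP elements are known to be held silent by DNA methylation. In embryonic stem cells they are also held silent by trimethylation of lysine 9 of histone H3, laid down by SETDB1 with its partner KAP1. DAXX and ATRX together deposit the histone variant H3.3 at repeats and telomeres, and DNA methyltransferases (DNMTs) methylate cytosines.

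RNA sequencing covered 8 groups of embryonic stem cells of the mouse, with a single library for each. TKO DAXX-knockout cells lack 3 DNMTs and DAXX, TKO cells lack the 3 DNMTs, J1 DAXX-knockout cells lack DAXX alone, and J1 is the wild-type line. Every line was grown for 72 hours with 2 inhibitors and vitamin C, called 2i here, or in regular medium. The additions were vitamin C at 100 µg/ml, PD0325901 at 1 µM, which inhibits MEK, and CHIR99021 at 3 µM, which inhibits GSK3b.

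The genotype field of the J1 DAXX-knockout libraries reads WT, so their DAXX state rests on title and description. That of the TKO DAXX-knockout libraries names the DNMT knockout alone, so their DAXX state does not rest on it either. The sources used here do not say whether a knockout line is 1 clone. The assembled loci carry no gene names, so the deleted genes and stem cell markers could not be looked up, and group names follow the labels. The RNA was cytoplasmic and captured on oligo-dT, and the table does not separate strands. In such bulk samples, fewer cells with RNA of a kind and less of it per cell cannot be told apart.

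Library totals lay between 67.4 M and 99.1 M reads. No group has a replicate. Each factor was therefore read over 4 pairs, matched for the other factors, and the p-values rest on the scatter left over the 8 libraries. For DAXX and for DNMT these pairs reuse the same 4 lines in the 2 media, so they are not independent cultures of a genotype. Copies of a family are nearly alike in sequence and are not replicates either. The counting of reads that map to several copies is not stated, so the level of a single copy may hold reads of its relatives, and whether a read could count more than once in the family sum is not known.

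In reads per M of the library total (RPM), the 814 copies together had 9704 RPM in TKO DAXX-knockout 2i, 8559 RPM in TKO DAXX-knockout regular, 4767 RPM in TKO 2i and 3620 RPM in TKO regular. In the J1 lines they had 31233 RPM in J1 DAXX-knockout 2i, 5130 RPM in J1 DAXX-knockout regular, 3030 RPM in J1 2i and 2061 RPM in J1 regular. Counting error was small beside these differences, with an exact 95% Poisson interval of 2051 to 2071 RPM in J1 regular. All 4 DAXX-knockout libraries lay above all 4 DAXX-intact ones. J1 DAXX-knockout 2i stood apart from the rest and was the highest library for 807 of the 814 copies. J1 regular was the lowest for 747 of them.

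As a share of the reads in the whole repeat table, a measure that does not use the library total, IAPEz-int held 11.7% in TKO DAXX-knockout 2i, 7.12% in TKO DAXX-knockout regular, 3.30% in TKO 2i and 1.87% in TKO regular. The shares were 20.5% in J1 DAXX-knockout 2i, 4.60% in J1 DAXX-knockout regular, 3.54% in J1 2i and 1.90% in J1 regular. Here too the knockout libraries were the 4 highest. Within each line the share was higher in 2i than in regular medium.

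No small number of copies held most of the reads. In J1 regular the median copy had 0.28 reads per kilobase and per M reads (RPKM), the quartiles were 0.21 and 0.39 RPKM, and the highest reached 4.47 RPKM. In J1 DAXX-knockout 2i the median copy had 5.21 RPKM, the quartiles were 3.32 and 7.98 RPKM, and the highest reached 27.7 RPKM. At least 1 RPKM was reached by 797 of 814 copies in J1 DAXX-knockout 2i, against 77 in J1 regular.

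The median copy had 1.51 RPKM in TKO DAXX-knockout 2i, 1.52 RPKM in TKO DAXX-knockout regular, 0.78 RPKM in TKO 2i and 0.57 RPKM in TKO regular. It had 0.82 RPKM in J1 DAXX-knockout regular and 0.43 RPKM in J1 2i. The reads behind a median copy numbered from 138 (J1 regular) up to 3077 (J1 DAXX-knockout 2i). The 10 highest copies of a library held between 3.68% of the summed RPKM, in TKO DAXX-knockout regular, and 6.79%, in J1 regular. The order of the copies was much the same everywhere, with Spearman's rho over copies between 0.87 and 0.97 for the 28 pairs of libraries. All copies share the library and its depth, so these coefficients are a description.

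**Figure D1:**
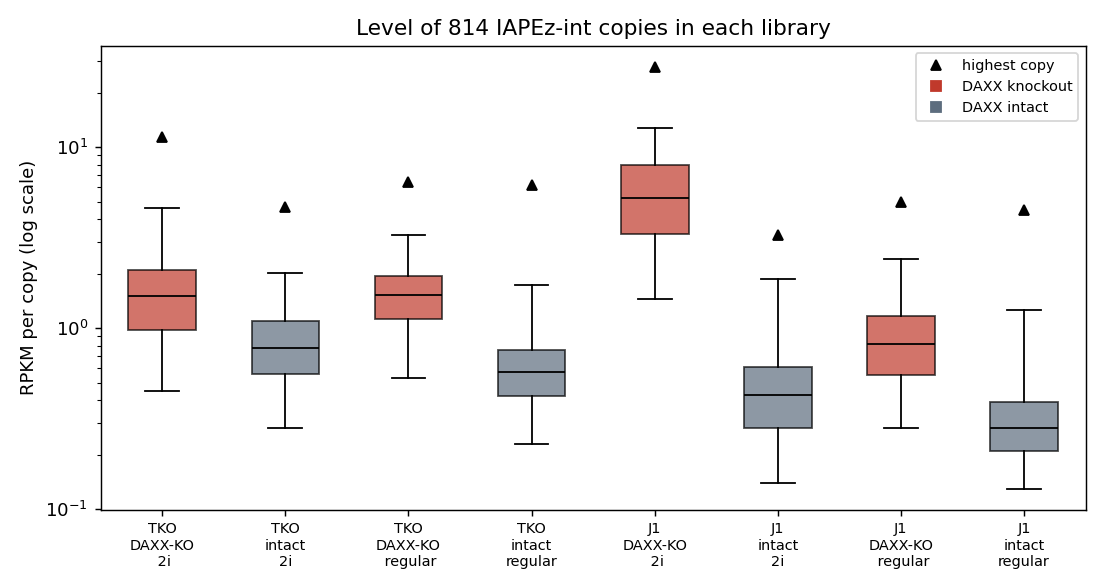
RPKM of the 814 IAPEz-int copies (vertical axis, log scale) in each library. Boxes give the median and quartiles over copies, whiskers the 5th and 95th percentiles, and triangles the highest copy; medians of DAXX-knockout libraries were 0.82 to 5.21 RPKM and those of intact libraries 0.28 to 0.78 RPKM.

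The first comparison asks how IAPEz-int RNA differs between DAXX-knockout and DAXX-intact cells. The family was higher in the knockout in 4 of 4 pairs, by 2.04-fold in TKO 2i, 2.36-fold in TKO regular, 10.3-fold in J1 2i and 2.49-fold in J1 regular. The exact two-sided sign-flip test over the 4 pairs gave p = 0.125, the smallest value that 4 pairs allow. Fitted over all 8 libraries, the family sum was 3.59-fold higher in the knockout (log2 1.84, SE 0.49). Its adjusted p was 0.0576 by edgeR's quasi-likelihood test over 44 families, so it did not pass the 0.05 threshold, nor did any other family (0.00%), and over 17 alternative fits the adjusted p lay between 0.00607 and 0.485. Without J1 DAXX-knockout 2i the family change was log2 1.17, with an adjusted p of 0.0317.

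The higher level in the knockout was shared by nearly all copies. Of all 814 copies, 803 were higher in the knockout in 4 of 4 pairs, and none was lower in all 4, beside 3.81% of elements that were. Among the 11332 elements of the table with a mean of at least 0.1 RPKM, 7.90% (895) were higher in 4 of 4 pairs. Of these 895, 799 were IAPEz-int copies, which is 99.3% of the 805 in that set. MMERVK10C-int, a family taken up below, had 88.2% of its 76 copies in that set higher in 4 of 4 pairs. For 477 of the 805 IAPEz-int copies the lowest knockout library lay above the highest intact library. This was so for 485 elements (4.28%) and for 0 MMERVK10C-int copies. The 9 copies below the filter had at most 0.3 RPKM in any library, and 802 copies reached a mean of 0.1 RPKM in the intact libraries alone.

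Other elements moved too, and differently in the J1 and TKO lines. On the log2(RPKM + 0.1) scale the median copy was higher in the knockout by 0.83 in TKO 2i, 1.19 in TKO regular, 3.21 in J1 2i and 1.18 in J1 regular. The median over all elements tested differed by −1.07, −0.98, 0.43 and −0.05 in the same pairs. Relative to that median, the copies stood 1.90, 2.17, 2.78 and 1.23 higher. Read against the other repeats, the DAXX difference was thus above 1 log2 unit in each of the 4 pairs. In 2i it was smaller in TKO than in J1 on both scales, with a narrower gap on the relative one. In regular medium TKO and J1 were nearly alike per library total, and TKO was the higher one relative to the other repeats.

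**Figure D2:**
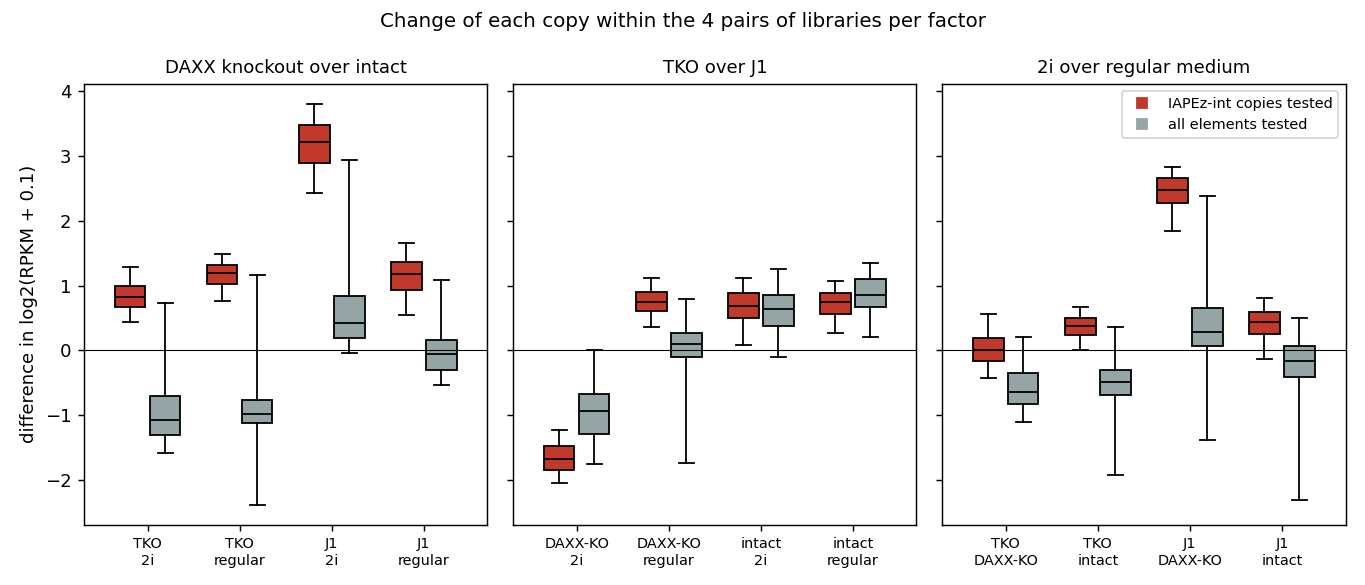
Difference in log2(RPKM + 0.1) of the 805 IAPEz-int copies tested (red) and of all 11332 elements tested (grey) within each pair of libraries, for DAXX, DNMT and medium. Boxes give medians and quartiles, whiskers the 5th and 95th percentiles; the copies' medians for DAXX lie between 0.83 and 3.21, and for DNMT they lie near 0.7 in 3 pairs and at −1.68 in DAXX-knockout 2i.

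Tested copy by copy with edgeR's quasi-likelihood test and adjustment over all 11332 elements, 704 of the 805 copies rose in the knockout and 0 fell. Of all elements listed there, 6.71% (760, the 704 copies among them) rose and 0.0618% fell. The median change was log2 1.94 for the copies and −0.44 for all elements, so the copies were 2.39 higher relative to the table. The 101 copies that did not pass had a median change of log2 1.45. These calls depended on single libraries. No copy passed when TKO DAXX-knockout regular, J1 DAXX-knockout regular, J1 2i or J1 regular was left out, or with the pair as a block, and 2 passed without TKO 2i. In those 5 fits that left out a library the median change was log2 1.63 to 2.16. Without J1 DAXX-knockout 2i, 726 copies passed, with a median change of log2 1.21. In that fit 7.24% of all elements rose and 30.5% fell, with a median of log2 −0.83 over all elements.

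The same question was asked within each DNMT background. In TKO, 315 of 805 copies rose (edgeR, adjusted p below 0.05) and 0 fell, with a median change of log2 1.17. In TKO, 3.42% of all elements rose and 56.3% fell, with a median of −1.18 over all elements. The share that fell depended on the scaling. Under TMM, median and LINE1 scaling 0.0971% to 0.115% of elements fell, with medians of −0.03 to −0.01. With these scalings 696 to 795 copies rose, beside 7.1% to 8.16% of all elements. When single libraries were left out, the median change of copies in TKO was log2 0.50 to 1.68, beside −1.535 to −0.875 over all elements. The calls of copies that rose were lost without TKO DAXX-knockout regular, TKO 2i, TKO regular, J1 2i or J1 regular. Nearly all calls of other elements that rose were lost with them. In J1, 798 of 805 copies rose and 0 fell, with a median change of log2 2.74, beside 7.81% of all elements that rose, 0.0176% that fell and a median of 0.24 over all elements. Leaving out a J1 library leaves 1 library on that side in J1. Nearly all calls in J1, of copies and of other elements, were lost without J1 regular or J1 2i. The median change of copies was then log2 2.92 and 2.50, beside 0.255 and 0.375 over all elements. Without J1 DAXX-knockout regular it was log2 3.63, beside 0.598. Without J1 DAXX-knockout 2i fewer copies were called, with a median change of log2 1.32, beside −0.225 over all elements. In that last fit the chromosome 4 copy from 146841760 changed by log2 −1.27, and it has the smallest DAXX change of all copies tested.

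The difference between the 2 backgrounds was tested as an interaction. Relative to all elements, the DAXX change was log2 2.35 in TKO and 2.50 in J1. The change in TKO was smaller than in J1 by a median of log2 1.56 over copies, against 1.41 over all elements. One of the 805 copies was called for this difference by edgeR, the one described next, and 353 (43.9%) had an unadjusted p below 0.05, against 47.8% of all elements. Of all elements, 0.503% were called lower. Without J1 DAXX-knockout 2i no copy was called and the median difference was log2 −0.18, and without J1 DAXX-knockout regular 798 copies were called lower, together with 80.2% of all elements. The family sum differed by log2 −1.41 (SE 0.85, adjusted p = 0.229 by edgeR). For DAXX by medium, 0 of 805 copies were called by edgeR, 0 had an unadjusted p below 0.05, and 0 were called by DESeq2. The median DAXX change was log2 1.16 larger in 2i, beside 0.36 for all elements.

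The copy with the largest DAXX change among those with a mean of at least 1 RPKM lies on chromosome 4 from 116865083 to 116871463. It had 1.86 RPKM in TKO DAXX-knockout 2i and 2.29 RPKM in TKO DAXX-knockout regular, against 1.27 RPKM in TKO 2i and 0.77 RPKM in TKO regular. In J1 it had 27.7 RPKM in J1 DAXX-knockout 2i and 3.92 RPKM in J1 DAXX-knockout regular, against 0.62 RPKM in J1 2i and 0.43 RPKM in J1 regular. It was the highest of the 814 copies in J1 DAXX-knockout 2i, while its levels in TKO lay between the 5th and 95th percentiles of the copies. Its DAXX change was log2 2.85 (SE 0.59, edgeR adjusted p = 0.00699), made up of 4.62 (SE 0.64) in J1 and 1.17 (SE 0.55) in TKO. The difference of −3.45 (SE 0.81) had an adjusted p of 0.0196 by edgeR, and the range over 16 alternative fits was 7.93e-11 to 1.00. The call held in 4 of these fits and was lost in the other 12, among them TMM, median and LINE1 scaling, DESeq2 and the omission of any one library other than the regular-medium libraries of the 2 DAXX-knockout lines.

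The next 2 copies in that order differed in where they were highest. The copy on chromosome 7 from 134762667 to 134769160 had 1.61 and 3.78 RPKM in TKO DAXX-knockout 2i and regular, against 0.78 and 0.52 RPKM in TKO 2i and regular. In J1 it had 4.79 and 1.98 RPKM in the knockout in 2i and regular medium, against 0.34 and 0.25 RPKM in intact cells. It rose by log2 2.82 (SE 0.59, edgeR adjusted p = 0.00699). Its TKO DAXX-knockout level was lower in 2i than in regular medium, while its J1 DAXX-knockout level was higher.

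The copy on chromosome 6 from 102523321 to 102529799 had 2.04 and 1.49 RPKM in TKO DAXX-knockout 2i and regular, against 0.74 and 0.65 RPKM in TKO 2i and regular. In J1 it had 9.3 and 2.06 RPKM in the knockout in 2i and regular medium, against 0.44 and 0.23 RPKM in intact cells. It rose by log2 2.59 (SE 0.60, edgeR adjusted p = 0.0169). All 3 copies were above their intact partner in every pair, and each of these 3 calls was lost without TKO DAXX-knockout regular, J1 DAXX-knockout regular, J1 2i or J1 regular, or with the pair as a block. Those of the chromosome 7 and chromosome 6 copies were also lost without TKO 2i.

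At the other end, a pair of copies on chromosome 4 did not follow the family. The copy from 146841760 to 146847069 had 4.14 and 5.05 RPKM in TKO DAXX-knockout 2i and regular, against 4.48 and 4.79 RPKM in TKO 2i and regular. In J1 it had 3.04 and 1.71 RPKM in the knockout in 2i and regular medium, against 3.05 and 4.47 RPKM in intact cells. It was the highest of all copies in J1 regular. Its fitted difference was log2 −0.33 (SE 0.52, edgeR adjusted p = 0.716), and the 3 other scalings turned the sign, to at most 0.11.

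The copy from 146577048 to 146583506 had 4.31 and 6.4 RPKM in TKO DAXX-knockout 2i and regular, against 4.69 and 6.21 RPKM in TKO 2i and regular. In J1 it had 5.08 and 2.48 RPKM in the knockout in 2i and regular medium, against 2.9 and 4.26 RPKM in intact cells. It was the highest copy of TKO regular, and its knockout and intact libraries overlapped. Its fitted difference was log2 0.04 (SE 0.50, edgeR adjusted p = 0.945). These 2 copies lay inside an assembled locus in 5 and 4 of the 8 libraries. Among copies with a mean of at least 1 RPKM the next smallest change was log2 0.96, for a copy on chromosome 14 from 4535609 to 4542020. It did not pass the test (edgeR adjusted p = 0.650), but passed under TMM, median and LINE1 scaling (adjusted p 0.00402 to 0.0111).

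**Figure D3:**
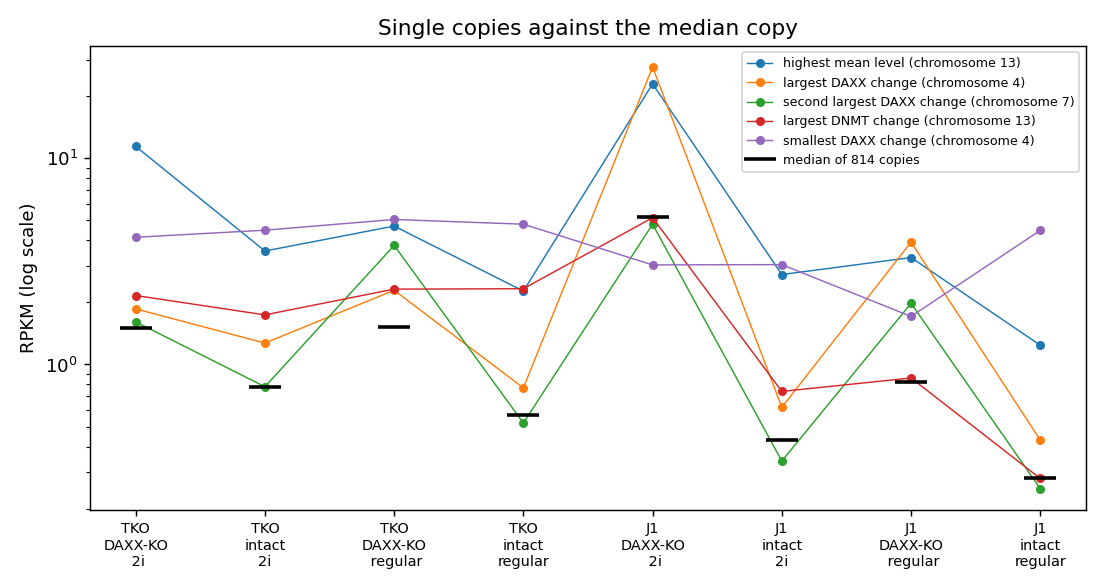
RPKM (log scale) of 5 single copies with a mean of at least 1 RPKM in the 8 libraries, with the median of the 814 copies as black bars; lines join the libraries for reading only. The copy with the largest DAXX change reached 27.7 RPKM in J1 DAXX-knockout 2i, and the one with the smallest stayed between 1.71 and 5.05 RPKM.

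The second comparison, TKO against J1, asks how IAPEz-int RNA differs when DNMTs are lost. The family was 1.67-fold higher in TKO with DAXX knocked out in regular medium, 1.57-fold higher with DAXX intact in 2i and 1.76-fold higher with DAXX intact in regular medium. With DAXX knocked out in 2i the direction was the opposite, with 9704 RPM in TKO and 31233 RPM in J1, a ratio of 0.311. Here 804 of the 805 copies tested were lower in TKO, whereas 800, 784 and 798 were higher in the 3 other pairs. Most elements of the table went the same way. Of all 11332 elements tested, 10746 were lower in TKO with DAXX knocked out in 2i, with a median of log2 −0.94. In the 3 other pairs, in the same order, 7192, 10489 and 11097 were higher. For the IAPEz-int family, the exact two-sided sign-flip test over the 4 pairs gave p = 1.

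No copy was called for DNMT by edgeR or by DESeq2, and 1 had an unadjusted p below 0.05, with a median change of log2 0.15 beside 0.17 for all elements. Of all elements, 0.582% rose and 0.0265% fell. Over the 4 pairs, 1 of 805 copies was higher in TKO in all, beside 1.73% of elements. The family change was log2 0.07 (SE 0.48, edgeR adjusted p = 0.970), where 11.4% of families passed, and it was negative under TMM, median and LINE1 scaling. Without J1 DAXX-knockout 2i it was 0.70 (edgeR adjusted p = 0.0974). In that fit 6 of the 805 copies were called, all higher in TKO, while 1.01% of all elements rose and 0.0441% fell.

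The median over all elements was also higher in TKO with DAXX intact, by log2 0.64 in 2i and 0.86 in regular medium. The IAPEz-int median was 0.69 in 2i and 0.74 in regular medium. Relative to the table the copies thus differed by 0.05 and −0.11 with DAXX intact, by 0.65 with DAXX knocked out in regular medium and by −0.74 with DAXX knocked out in 2i.

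Among copies with a mean of at least 1 RPKM, the one with the largest DNMT change lies on chromosome 13 from 66113571 to 66119989. It had 2.16 and 2.32 RPKM in TKO DAXX-knockout 2i and regular, against 5.15 and 0.86 RPKM in the J1 DAXX-knockout pair. With DAXX intact it had 1.74 and 2.33 RPKM in TKO 2i and regular, against 0.74 and 0.28 RPKM in J1 2i and regular. Its level in TKO was nearly flat across DAXX state and medium, between 1.74 and 2.33 RPKM. Its fitted DAXX change was log2 0.09 (SE 0.52) in TKO and 2.42 (SE 0.55) in J1, and their difference did not pass (edgeR adjusted p = 0.0734). Its DNMT change of log2 1.11 (SE 0.61) did not pass either (adjusted p = 1.00).

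The copy on chromosome 4 from 145472022 to 145478279 came next for DNMT, with a fitted log2 of 0.76. It had 2.12 and 2.4 RPKM in TKO DAXX-knockout 2i and regular and 0.87 and 1.18 RPKM in TKO 2i and regular. The J1 values were 2.37 and 0.66 RPKM in the knockout and 0.59 and 0.58 RPKM in intact cells. The lowest DNMT values were log2 −0.70 for the copy on chromosome 4 from 116865083 and −0.42 for one on chromosome 11 from 6041854 to 6048286. The chromosome 11 copy lay inside an assembled locus in all 8 libraries and had between 1.55 and 13.6 RPKM. None of these passed the test for DNMT.

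The third comparison, 2i with vitamin C against regular medium, was largest in 1 line. The family was 1.13-fold higher in 2i in TKO DAXX-knockout, 1.32-fold higher in TKO, 6.09-fold higher in J1 DAXX-knockout and 1.47-fold higher in J1. The exact two-sided sign-flip test over the 4 pairs gave p = 0.125, again the smallest possible. Of the 805 copies, 382 were higher in 2i in 4 of 4 pairs, beside 4.32% of all elements. In J1 DAXX-knockout all 805 were higher, and in TKO DAXX-knockout 397 were higher and 390 lower. Of all 11332 elements tested, 9010 were higher in J1 DAXX-knockout. In TKO DAXX-knockout 1149 of all elements were higher and 10053 lower.

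No copy passed for the medium with edgeR (227 had an unadjusted p below 0.05), where 0.494% of all elements rose and 4.72% fell. The median change was log2 1.04 for the copies and −0.25 for all elements. DESeq2 called 5 copies and edgeR with TMM 13, beside 0.565% and 0.547% of all elements that rose. Median and LINE1 scaling called 565 and 512, beside 5.56% and 5.07%. With the cell line as a block 45 were called, beside 1.02%. No copy fell in these fits, while the share of elements that fell ran from 0.0706% (TMM) to 6.22% (block). The family change was log2 1.03 (SE 0.48, edgeR adjusted p = 0.231), where 15.9% of families passed, and 0.37 (adjusted p = 0.287) without J1 DAXX-knockout 2i. Relative to the median element, the median copy was higher in 2i by 0.64 in TKO DAXX-knockout, 0.87 in TKO and 0.61 in J1. In J1 DAXX-knockout the medians were 2.48 for the copies and 0.28 for all elements.

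The copy with the highest mean level, on chromosome 13 from 28216634 to 28223022, also had the second largest medium change among copies with a mean of at least 1 RPKM. It had 11.4 RPKM in TKO DAXX-knockout 2i and 4.69 RPKM in TKO DAXX-knockout regular, and 3.55 RPKM in TKO 2i and 2.27 RPKM in TKO regular. In the J1 lines it had 22.9 RPKM in J1 DAXX-knockout 2i and 3.3 RPKM in J1 DAXX-knockout regular, and 2.73 RPKM in J1 2i and 1.24 RPKM in J1 regular. It was higher in 2i in 4 of 4 pairs and higher in the knockout in 4 of 4 pairs. Its medium change of log2 1.50 (SE 0.50) had an edgeR adjusted p of 0.0523, and it passed in 8 of 17 alternative fits (adjusted p 0.00600 with the cell line as a block). Its DAXX change of 1.84 (SE 0.50) had an edgeR adjusted p of 0.0172.

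The other 4 copies of the highest mean level lie on chromosomes 10, 1, 7 and 3 and had almost the same profile. They had between 10.1 and 10.8 RPKM in TKO DAXX-knockout 2i and between 4.68 and 5.03 RPKM in TKO DAXX-knockout regular. In J1 DAXX-knockout 2i they had between 20.6 and 22.6 RPKM, and in J1 regular between 1.26 and 1.66 RPKM. Each rose in the knockout, by log2 1.64 to 1.81 (edgeR adjusted p 0.0182 to 0.0243).

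At that same minimum level the largest medium change, log2 1.53 (SE 0.55, edgeR adjusted p = 0.0831), belonged to a copy on chromosome 6 from 14035398 to 14041872, and with the cell line as a block it passed (adjusted p = 0.0101). It had 13.7 RPKM in J1 DAXX-knockout 2i and 1.49 RPKM in J1 DAXX-knockout regular, and 4.35 and 2.57 RPKM in TKO DAXX-knockout 2i and regular. The smallest, log2 −0.83 (SE 0.61, adjusted p = 0.977), belonged to a copy on chromosome 5 from 30549921 to 30556362. That copy had 1.12 RPKM in TKO DAXX-knockout 2i and 2.49 RPKM in TKO DAXX-knockout regular, 0.66 RPKM in TKO 2i and 1.59 RPKM in TKO regular. In J1 it had 0.42 RPKM in 2i and 1.39 RPKM in regular medium, and it was higher in 2i in J1 DAXX-knockout alone, with 2.78 against 1.91 RPKM.

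The levels in J1 regular fell into a main body and a smaller upper group. There were 266 copies from 0.2 up to 0.3 RPKM, 4 from 0.7 up to 0.8 RPKM and 20 from 1.3 up to 1.4 RPKM. A limit at 0.8 RPKM, chosen after the values were seen, set apart 94 copies on 19 chromosomes. Just below the limit the values were 0.75 and 0.79 RPKM, and just above it 0.8 and 0.83 RPKM. The upper group is described without a test, and only libraries other than J1 regular are independent of its choice.

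The 94 copies stayed the higher ones elsewhere. Their median was 4.43 RPKM in TKO DAXX-knockout 2i, 3.17 RPKM in TKO DAXX-knockout regular, 1.94 RPKM in TKO 2i and 1.69 RPKM in TKO regular. The other 720 copies had medians of 1.4, 1.42, 0.73 and 0.535 RPKM in those libraries. In J1 DAXX-knockout 2i the medians were 11.8 RPKM for the upper group and 4.82 RPKM for the others.

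In TKO DAXX-knockout cells the upper group and the other copies differed in how they stood between the media. The upper group's summed reads were 1.52-fold higher in 2i, against 1.01-fold for the other 720 copies, and the median copy differed by log2 0.51, against −0.03. At limits of 0.6 and 1.0 RPKM the upper median was 0.50 and 0.52. For DAXX in TKO the summed ratio of the upper group was 2.42 in 2i and 1.86 in regular medium, and that of the others was 1.90 and 2.58. The group with the larger DAXX ratio therefore changed with the medium in TKO. In J1 2i, not used for the choice, the DAXX ratio was 6.83 for the upper group and 12.4 for the others. For TKO over J1 with DAXX intact in 2i the median difference was log2 0.12 for the upper group and 0.73 for the others.

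**Figure D4:**
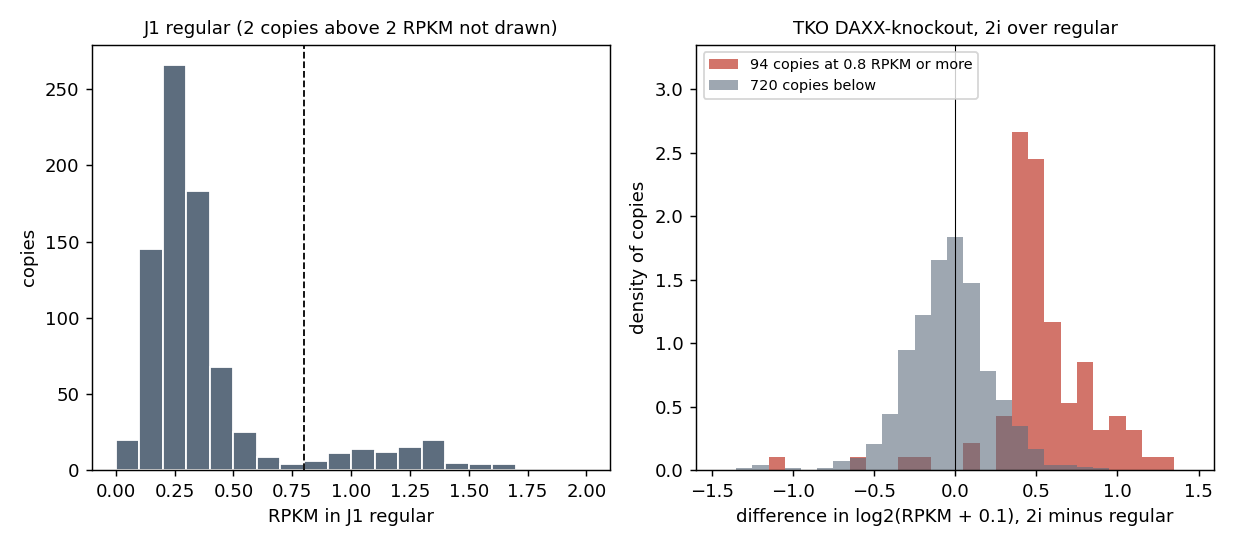
Left, number of copies by RPKM in J1 regular, with the limit of 0.8 RPKM dashed. Right, distribution over copies of the difference in log2(RPKM + 0.1) between 2i and regular medium in TKO DAXX-knockout cells, where the 94 copies at or above the limit had a median of 0.51 and the 720 below it −0.03.

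The copies were also grouped by their level in a library outside the pair. In 4 classes of about equal size, from the lowest to the highest J1 regular level, the median change with 2i in TKO DAXX-knockout cells was log2 −0.17, −0.09, 0.04 and 0.38. The J1 regular level also set the upper group, and the highest class holds that whole group. The order therefore restates the contrast above and is no separate evidence. In intact TKO the values were 0.32, 0.40, 0.43 and 0.35, with no such order. For DAXX in J1 2i, 4 classes by the TKO regular level had medians of 2.87, 3.27, 3.47 and 3.18.

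The copies were nearly uniform in length. They ran from 5010 to 6647 bp with a median of 6420 bp, and 707 of them (86.9%) had over 6300 and up to 6500 bp. The 24 copies up to 6000 bp and the 69 over 6500 bp were the exceptions. The copies over 6500 bp had lower levels, with a median of 2.45 RPKM in J1 DAXX-knockout 2i against 5.5 RPKM for those over 6000 and up to 6500 bp, and 0.19 against 0.3 RPKM in J1 regular. Spearman's rho between RPKM, which is already divided by length, and length was between −0.30 and −0.25 over the 814 copies of a library. The upper group had a median length of 6426 bp with quartiles of 6412 and 6447 bp, against 6415 bp with quartiles of 6386 and 6463 bp for the others.

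The DAXX change differed little with length. Its median was log2 1.91 for the 11 tested copies up to 5500 bp, 1.71 for 8 copies up to 6000 bp, 1.95 for 717 copies up to 6500 bp and 1.85 for 69 longer copies. The shortest copy, of 5010 bp, on chromosome 15 from 71062651 to 71067660, had 8.82 RPKM in J1 DAXX-knockout 2i against 0.65 RPKM in J1 2i and rose with DAXX loss by log2 2.12 (SE 0.62, edgeR adjusted p = 0.0202). The longest, of 6647 bp, on chromosome 9 from 123100314 to 123106960, had 3.3 against 0.31 RPKM in those libraries and rose by 1.93 (SE 0.57, adjusted p = 0.0203).

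The copies lay on 21 chromosomes, from 2 on Y to 66 on chromosome 1. Neighbouring copies were a median of 2015 kb apart, and 3 lay within 10 kb of another. The median DAXX change per chromosome ran from log2 1.75 on chromosome 15 to 2.01 on chromosome 11. The quartiles over single copies were 1.77 and 2.06.

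The deposited transcript assemblies show which copies lie within transcribed loci. A copy was counted as inside when at least 50% of its bases lay in 1 assembled locus of that library. Between 63 copies in J1 regular (7.74%) and 75 in TKO DAXX-knockout 2i (9.21%) were inside. In at least 1 library 98 copies (12.0%) were inside, against 8.42% of all 17079 elements off the random scaffolds, and 50 copies (6.14%) were inside in all 8 libraries, against 3.51%. The other 716 were in none. The loci holding copies were long, with medians between 111 and 134 kb, so most copies counted as inside are a small part of a much larger locus.

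Copies inside a locus in all 8 libraries had somewhat higher levels, with a median of 6.74 RPKM in J1 DAXX-knockout 2i against 5.19 RPKM for copies in none, and 0.39 against 0.28 RPKM in J1 regular. Their DAXX change was log2 1.77, against 1.96 for copies in none. Of those tested, 32 of 50 (64.0%) rose with DAXX loss, against 635 of 707 (89.8%) of copies in no locus. Beside this, 13 of the 50 belonged to the upper group, against 71 of the 716, and the part of that in the count was not tested.

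The loci around these 50 copies did not change as the copies did. On a log2(FPKM + 1) scale, which understates changes of low loci, the median DAXX difference of the loci was 0.16 in TKO 2i, 0.04 in TKO regular, −0.02 in J1 2i and 0.06 in J1 regular. The copies inside them differed by 0.88, 1.14, 3.04 and 1.01 on the log2(RPKM + 0.1) scale. All 50 copies were higher in the knockout in each pair, while between 25 and 33 of the 50 loci were. Locus bounds were drawn separately in each library, and the difference between copies and loci was not tested.

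**Figure D5:**
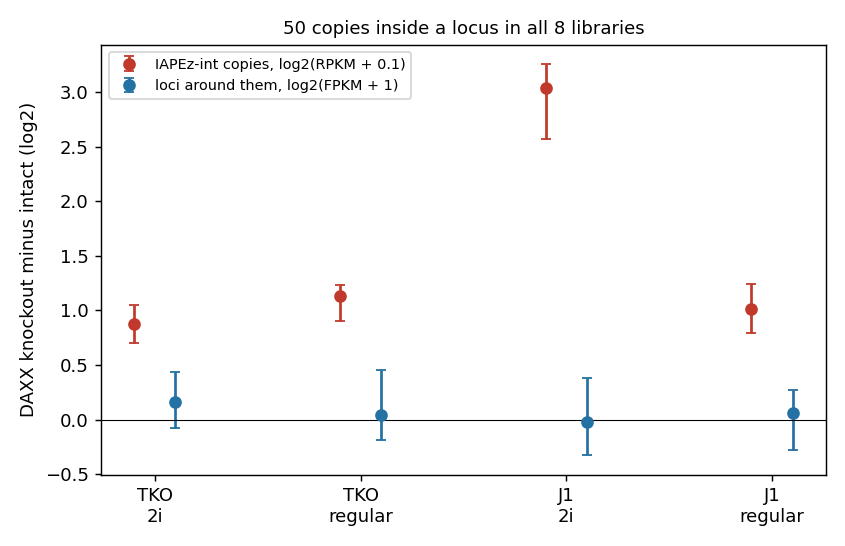
Median and quartiles of the DAXX knockout minus intact difference for 50 IAPEz-int copies (red, log2(RPKM + 0.1)) and for the assembled loci that contain them (blue, log2(FPKM + 1)) in each pair. Copy medians lie between 0.88 and 3.04 and locus medians between −0.02 and 0.16.

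In a few cases an assembled locus had at least 50% of its length within a copy. There were at most 4 such copies in a library and 8 in all, and they include the copies with the 2 largest DAXX changes. The copy on chromosome 7 from 134762667 had such a locus in all DAXX-knockout libraries except TKO DAXX-knockout 2i, at 0.784 FPKM in TKO DAXX-knockout regular, 1.02 FPKM in J1 DAXX-knockout 2i and 0.551 FPKM in J1 DAXX-knockout regular, and in no intact library. The copy on chromosome 4 from 116865083 had one in J1 DAXX-knockout regular alone. The copy on chromosome 5 from 30549921 had one in 4 libraries, among them TKO regular and J1 regular.

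MMERVK10C-int, a provirus of the same ERVK class, and the other families named IAP were set beside IAPEz-int. MMERVK10C-int was higher in DAXX-knockout cells in 4 of 4 pairs, by 1.39-fold in TKO 2i, 5.29-fold in TKO regular, 3.42-fold in J1 2i and 2.43-fold in J1 regular. The difference in log2 ratio, IAPEz-int minus MMERVK10C-int, averaged 0.26 ± 1.15 (SD, n = 4 pairs) for DAXX and was above 0 in 3 pairs (exact sign-flip p = 0.625). With 2i MMERVK10C-int was lower in 4 of 4 pairs, by ratios of 0.117 to 0.446. The difference for the medium averaged 2.80 ± 1.04 and was above 0 in 4 of 4 pairs (exact sign-flip p = 0.125, the smallest possible). Of its 76 tested copies 64 fell with 2i by edgeR, beside 4.72% of all elements. With DAXX loss 38 of the 76 rose and 0 fell, beside 6.71% and 0.0618% of all elements.

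The other families named IAP had 156 listed elements, of which 21 passed the filter. Their DAXX ratios ran from 0.631 to 1.82. The difference from IAPEz-int was 1.60 ± 1.16 for DAXX (SD, n = 4 pairs) and 2.43 ± 2.05 for the medium, and each was above 0 in 4 of 4 pairs (exact sign-flip p = 0.125). Against the sum of all other elements, IAPEz-int was higher by 2.02 ± 0.61 for DAXX and 1.24 ± 0.79 for the medium, in 4 of 4 pairs each (exact sign-flip p = 0.125), and by −0.10 ± 0.67 for DNMT, above 0 in 1 of 4 pairs (p = 0.625). Against L1Md_A, a LINE1 family, the DAXX difference was 2.40 ± 0.59, and against L1Md_T it was 2.10 ± 0.62. These differences hold the change of the LINE1 families too. Their own DAXX ratios ran from 0.349 to 1.19 for L1Md_A and from 0.445 to 1.65 for L1Md_T. In TKO both LINE1 families were lower in the knockout in either medium.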

How the data were processed

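The repeat table held whole-number read counts and RPKM of each element in 8 libraries, both made by the authors per the file headers. Further deposited files gave FPKM of loci assembled by the authors in each library. TopHat, Bowtie2 2.2.4, Cufflinks, Cuffdiff and mm9 are named in the submitters' processing notes, with no role. Library totals were recovered from count, RPKM and length; only length = end − start gave 1 total per library, so starts count from 0 and are printed 1 higher. No column was left unused.

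Counts were tested with edgeR 4.0.16 (quasi-likelihood, R 4.3.3) with the recovered totals, on elements with a mean RPKM of at least 0.1 and families of at least 1 RPM. Each factor was fitted with the others (4 residual degrees of freedom, 3 with an interaction), two-sided, with Benjamini-Hochberg adjustment at 0.05. The fits were also run on simulated counts with known changes. These had independent scatter and no shift of a whole library, so they do not test the fits under such shifts. Alternatives were other scalings, filters, DESeq2 1.42.0, limma 3.58.1 on log2(RPKM + 0.1) or + 1, blocks, and the omission of each library. TMM moved the median DAXX change of all elements from log2 −0.44 to 0.00. Poisson intervals cover counting error only.

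Named copies were the 5 of highest mean RPKM, then, with a mean of at least 1 RPKM, the 3 largest and 3 smallest changes for DAXX and 2 each for DNMT and medium, and the longest and shortest. Members, lists and rule were chosen with earlier results of these data known. No genome of mm9 was at hand, so sequences were not analysed here. Python 3.11.15 and pandas 2.3.3 were used.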

Additional observations from a re-analysis of the deposited data

Results flagged for a closer look

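The TKO over J1 ratio of the family in DAXX-knockout 2i was 0.311, opposite in direction to the 3 other pairs. The difference was not tested, since it rests on 1 library of each kind. The TKO over J1 ratio of all elements together was 0.543 in that pair and 1.08 to 1.78 in the 3 other pairs. The chromosome 4 copy from 116865083 differed in its DAXX change between TKO and J1, by log2 −3.45, and was the only one of the 805 copies called for that difference by edgeR. The call held in 4 of 16 alternative fits, and was lost under the other scalings, with DESeq2 and in 6 of the 8 fits that left out a library.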

How the results depend on the processing

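Every group has replicate number 1 alone, so pairs were matched by the other factors, and a block for the pair or the line was fitted. Counting error of the family sums was small, and 9 copies were too low to test.

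For the DAXX difference the pair block called 0 copies. TMM, median and LINE1 scaling each called 803, beside 7.98% to 8.05% of all elements that rose. DESeq2 called 780, beside 7.62%. The family change was past the threshold at log2 2.02 with TMM, 2.14 with median scaling, 2.24 with LINE1 scaling and 1.70 with the pair block. Leaving out a library gave 0 to 796 called copies, beside 0% to 7.77% of all elements that rose and 0% to 30.5% that fell. The family change was then log2 1.17 to 2.13.

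For DAXX in J1, TMM called 490 copies, beside 4.41% of all elements that rose. Leaving out a library gave a median change of log2 1.32 to 3.63 over copies, beside −0.225 to 0.598 over all elements. The family change was then log2 1.22 to 3.45, and nearly all calls were lost without J1 regular or J1 2i. For DAXX in TKO, TMM called 696, median scaling 795, LINE1 scaling 793, limma 502 or 28 with the larger pseudocount, the unfiltered fit 19 and the stricter filter 0. The shares of all elements that rose were 7.1%, 8.16%, 8.15%, 5.12%, 0.944%, 0.386% and 0%, in that order. At most 0.115% fell under the scalings, and 68.6%, 58.8%, 9.3% and 0.0306% in the other fits. The family change was log2 2.31 with LINE1 scaling. Leaving out a library gave 0 to 750 copies and log2 0.60 to 1.57.

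For DAXX by DNMT, 0 copies were called with TMM, median and LINE1 scaling, DESeq2, limma with the larger pseudocount and the stricter filter, and 3 with no filter. Of all elements, 0% to 0.132% were called lower in the fits with 0 copies named here, and 1.05% with no filter. LINE1 scaling turned the family difference to log2 0.14. Leaving out a library gave 0 to 798 copies and log2 −2.31 to −0.087. For DAXX by medium it gave log2 −0.29 to 2.13, negative without J1 DAXX-knockout 2i.

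For DNMT the family change was log2 −0.34 with TMM, −0.16 with median scaling and −0.058 with LINE1 scaling. Leaving out a library gave 0 to 6 copies, beside 0.397% to 1.01% of all elements that rose, and log2 −0.21 to 0.70. For the medium, TMM called 13 copies, median scaling 565, LINE1 scaling 512, DESeq2 5, limma 2 or 1, and the line block 45. The shares of all elements that rose were 0.547%, 5.56%, 5.07%, 0.565%, 0.485% with limma either way and 1.02%, in that order. LINE1 scaling put the family at log2 1.23, past the threshold. Leaving out a library gave 0 to 132 copies, beside 0.15% to 1.69% of all elements that rose.

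Of the named copies, the chromosome 4 copy from 146841760 had a DAXX change of log2 0.11 under TMM, median and LINE1 scaling. The one from 146577048 had −0.011 or −0.0040 with limma and −0.014 with the pair block, −0.30 to 0.28 with a library left out, and a medium change of 0.10 with TMM, 0.14 with median and 0.13 with LINE1 scaling. The DNMT change of the copy from 116865083 was −1.32 to 0.14 with a library left out. The cause of these shifts was not tested.

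The top 10 copies held 6.61% of reads in J1 regular, against 6.79% of RPKM. The longest copies, in 3 classes of equal size, had a DAXX change of log2 1.89, against 1.85 over 6500 bp. Under any overlap 108 copies touched a locus, and 97 were wholly inside.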
